A study of Mus musculus with 6 samples.

Results

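Platelet-derived growth factor (PDGF) and vascular endothelial growth factor (VEGF) genes were read in mouse skeletal stem cells from the Achilles tendon-to-bone interface. Members were all rows of the deposited table whose gene symbol was Pdgfa, Pdgfb, Pdgfc, Pdgfd, Pdgfra, Pdgfrb, Vegfa, Vegfb or Vegfc, which gave 9 of 26130 genes. Skeletal stem cells are progenitors of cartilage, bone and stroma, and here they were sorted from C57BL/6 mice and sequenced in bulk. There were 2 sham control libraries, 1 from an uninjured interface and 3 from interfaces after a partial injury. All 6 are listed at day 7 after injury, the controls included, and cDNA was amplified from 150 pg of RNA in each. The labels name no genetic change or drug for any group, and give neither age nor the markers of the sort. The description field of the uninjured library calls it a sham, so injured cells were compared with sham control alone and then with all 3 non-injured libraries. The labels do not say whether libraries are separate animals or pools, so p-values cover the spread among these 6 libraries and part of it may be technical.

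PDGF ligands are secreted dimers that act through the receptor tyrosine kinases encoded by Pdgfra and Pdgfrb. PDGF-A and PDGF-C act mainly on the alpha receptor, PDGF-D mainly on the beta receptor and PDGF-B on both, and these signals drive growth and migration of mesenchymal cells. VEGF ligands belong to the same cystine-knot family and act mainly on endothelial receptors, VEGF-A and VEGF-B on blood vessels and VEGF-C on lymphatic vessels. In the skeleton, Vegfa is known to be made by hypertrophic chondrocytes and osteoblast precursors.

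No member passed the test in either comparison, by edgeR's quasi-likelihood test, DESeq2 or limma-voom. Against sham control the log2 fold change was above 0 for Pdgfc and Vegfa and below 0 for the other 7 members, where 46.0% of all genes lay below 0. Their median was -0.42 against 0.09 over all 16752 genes tested. The edgeR call at an adjusted p of 0.05 was made for 0% of all genes, the unadjusted call for 4.64%, and 0 of 9 members had an unadjusted p under 0.05. DESeq2 called 2.20% of genes and limma-voom 0.00597%, none of them members. Against all non-injured libraries the median was -0.64, with 0.00 over 14110 genes. There too 2 members lay above 0 and 7 below, where 49.9% of genes lay below, and 0 had an unadjusted p under 0.05, beside 7.43% of genes. In that comparison edgeR called 0% of genes after adjustment, DESeq2 2.49% and limma-voom 0.0496%.

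**Figure D1:**
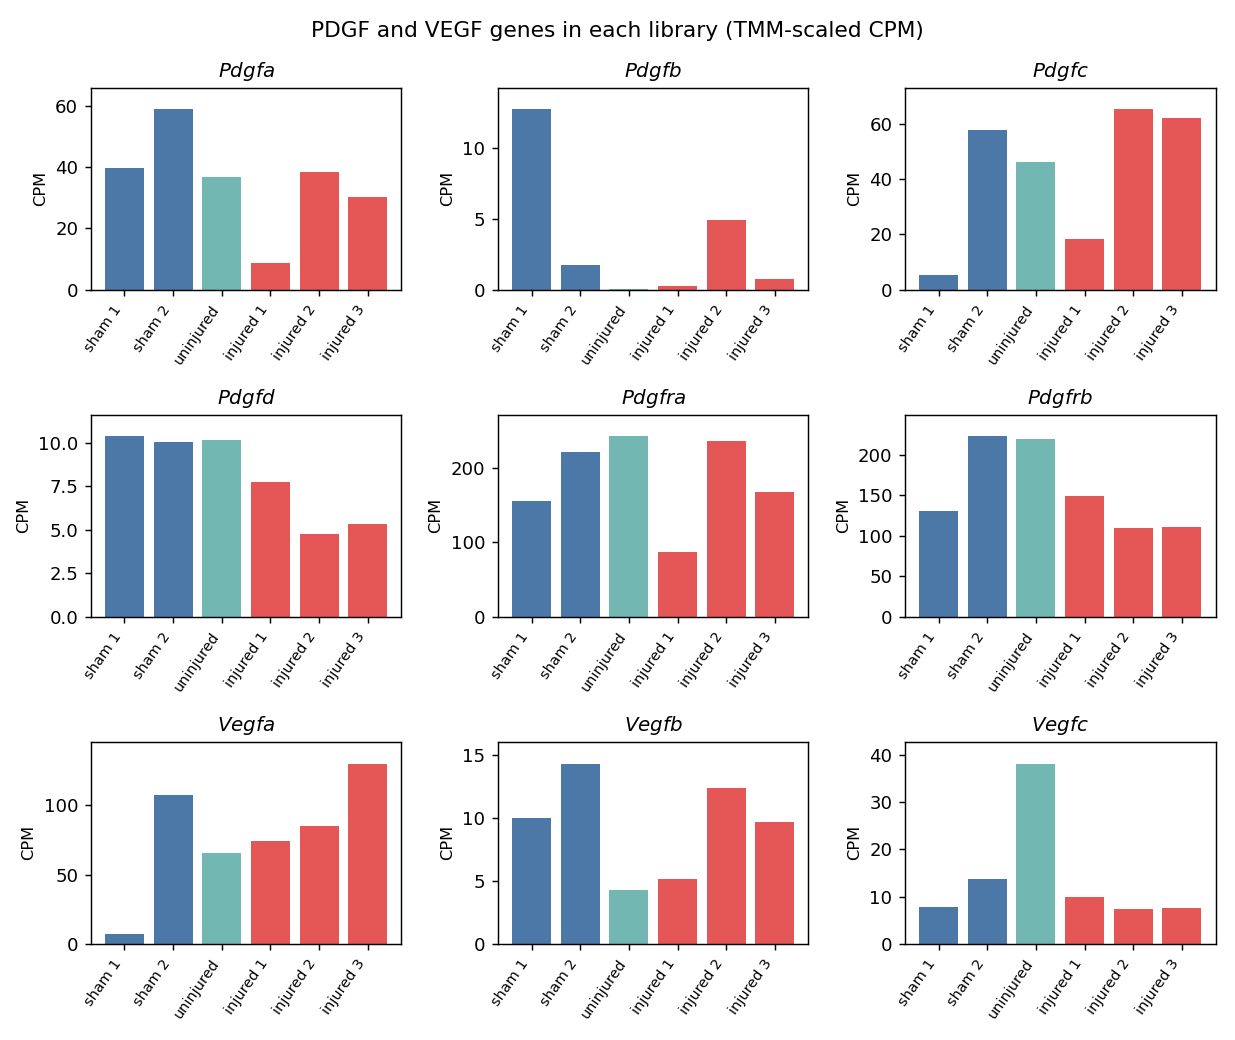
Level of each member in each of the 6 libraries, in CPM (counts put on a common scaled library size), on linear axes that start at 0; blue bars are sham control, teal is uninjured and red is injured. Pdgfd is lower in all 3 injured libraries than in the other 3, whereas Vegfa and Pdgfc are lowest in sham 1.

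By the SD of log2(CPM + 1), which narrows the spread of low levels, Vegfa varied most across the 6 libraries and Pdgfd least (1.48 and 0.44). By the highest CPM over the lowest, Pdgfb varied most (524, beside 18.8 for Vegfa) and Pdgfrb least (2.03, beside 2.19 for Pdgfd). Vegfa and Pdgfd were picked by the SD, and their promoter windows are shown, both of those listed for Vegfa and the 1 listed for Pdgfd. Each runs from 250 bases before to 50 after the RefSeq start on GRCm38.p6. Capitals mark the GC box GGGCGG, the TATA box TATAAA and the hypoxia response core ACGTG, each searched on both strands.
Vegfa upstream start, chr17:46032328-46032627, minus strand: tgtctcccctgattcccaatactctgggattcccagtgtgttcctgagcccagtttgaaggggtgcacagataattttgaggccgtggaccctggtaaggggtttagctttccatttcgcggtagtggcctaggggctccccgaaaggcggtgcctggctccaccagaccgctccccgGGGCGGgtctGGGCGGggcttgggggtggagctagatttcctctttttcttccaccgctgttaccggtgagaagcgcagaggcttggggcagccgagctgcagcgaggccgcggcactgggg
Vegfa downstream start, chr17:46025114-46025413, minus strand: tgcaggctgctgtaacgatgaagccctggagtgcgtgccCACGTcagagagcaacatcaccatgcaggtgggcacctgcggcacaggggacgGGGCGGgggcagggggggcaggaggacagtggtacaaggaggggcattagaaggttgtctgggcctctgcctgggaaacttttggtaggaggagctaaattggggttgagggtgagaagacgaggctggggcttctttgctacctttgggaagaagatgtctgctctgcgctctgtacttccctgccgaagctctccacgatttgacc
Pdgfd, chr9:6168236-6168535, plus strand: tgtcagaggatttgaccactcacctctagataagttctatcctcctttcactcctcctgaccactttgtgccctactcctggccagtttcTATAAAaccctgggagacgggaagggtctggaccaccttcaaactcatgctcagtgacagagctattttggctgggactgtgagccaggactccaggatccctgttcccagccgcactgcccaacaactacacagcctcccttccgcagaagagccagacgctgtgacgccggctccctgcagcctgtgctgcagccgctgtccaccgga
The upstream Vegfa window holds 2 GC boxes, no TATA box and no ACGTG. The downstream Vegfa window holds 1 GC box, no TATA box and 1 ACGTG, which lies on the other strand and so reads CACGT. This window lies past the upstream start, inside the gene, so its letters may be exon sequence. Whether it acts as a promoter was not tested. The Pdgfd window holds 1 TATAAA match, no GC box and no ACGTG. The TATAAA lies nearer the upstream end of the window than the RefSeq start, and whether it acts at that start was not tested. Of 32544 windows in the table, 35.9% hold GGGCGG, 13.6% hold TATAAA and 19.7% hold ACGTG. A match is a description of the letters and not a bound site.

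Depth and the summed levels of cell-type markers differed between libraries. Total counts were 37506188 to 51089267 per library, and the members' own counts ran from 1 to 14250. The labels mention no molecular identifiers, so amplified copies count along with original molecules. The 6 erythroid markers found in the table summed to 38765 CPM in sham 1, 6077 in injured 1 and 593 in injured 2, against at most 127 in the other libraries. The 12 endothelial markers summed to 3186 and 12.7 CPM in sham 1 and 2, 1007 in uninjured cells and 652, 302 and 103 in injured 1, 2 and 3. In sham 2, 9 of the 12 endothelial markers had no count, Cdh5, Tie1 and Vwf among them. The 11 macrophage markers summed to 4879 CPM in injured 1 and 2903 in sham 1, and to 37.3 to 1233 elsewhere. The 8 chondrocyte markers summed to 10588 and 47426 CPM in sham 1 and 2, 24713 in uninjured cells and 10459 to 53833 in injured cells. Within that sum single genes moved in opposite directions. Cnmd, a cartilage matrix protein, stood at 1.41 to 4.09 CPM in non-injured and 119 to 833 CPM in injured libraries, and Col9a1, a collagen of cartilage, at 5.08 to 12.5 and 76.0 to 1030 CPM. Chad, a cartilage adhesion protein, stood at 4386 to 16868 CPM in non-injured and 223 to 595 CPM in injured libraries. DESeq2 called Cnmd and Col9a1 higher and Chad lower in both comparisons, whereas edgeR called none of the 3. The 7 Schwann cell markers summed to 5094 and 777 CPM in sham 1 and 2, 926 in uninjured cells and 271 to 579 in injured cells. All had a fold below 0 in both comparisons. Against sham control DESeq2 called 4 lower (Mbp, Mag, Prx and Pmp22). Of these, Mag and Prx overlapped between groups, and Prx stood at 538 CPM in sham 1 and 15.4 in sham 2. Against all non-injured libraries DESeq2 called 1 (Pmp22) and gave no adjusted p for Mbp, Mag, Prx and Sox10.

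The 7 genes for surface proteins used to sort skeletal stem cells varied between libraries. Itgav and Cd200, which such sorts select for, were present in every library at 31.1 to 116 and 31.0 to 160.2 CPM. The other 5 encode proteins that such sorts select against. Of these, Eng stood at 201 CPM in sham 1, 0 in sham 2, 25.5 in uninjured cells and 5.46 to 66.1 CPM in injured libraries. Tek stood at 58.1 CPM in sham 1, 61.7 in uninjured cells and 0.580 to 9.28 CPM elsewhere. Ptprc reached 24.8 CPM in injured 1 and 15.1 in injured 2, against 0 to 9.95 CPM elsewhere. Thy1 ranged from 0.0730 to 14.3 CPM and Enpep from 0 to 16.1 CPM. Sham 2 was thus at or near 0 for all 5, and sham 1 was not. In bulk RNA, fewer cells of a type and less RNA per cell cannot be told apart.

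Pdgfa encodes the A chain, a ligand of the alpha receptor. It stood at 39.8 and 58.9 CPM in sham 1 and 2, 36.7 in uninjured cells, and 8.76, 38.4 and 30.1 in injured 1, 2 and 3. Every injured library lay below both sham libraries in CPM, but injured 2 lay above the uninjured library, so the groups overlapped once it was included. The small gap between injured 2 and sham 1 depended on the scaling between libraries. Pdgfa had 2323 of 51089267 counts in injured 2 and 1474 of 38382144 in sham 1. By total counts alone, injured 2 thus lay above sham 1. Pdgfa differed by a log2 fold change of -0.94 ± 0.66 (SE) against sham control and -0.81 ± 0.57 against all non-injured libraries (edgeR adjusted p = 0.865 and 0.866). It stayed below 0 without each library in turn, from -1.33 to -0.53 against sham control.

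Pdgfb, the B chain, known chiefly as an endothelial and platelet product that recruits pericytes, had the fewest counts of the members. Its level was 12.8 and 1.77 CPM in sham 1 and 2, 0.0243 in the uninjured library, where it rested on 1 count, and 0.272, 4.92 and 0.728 in injured 1, 2 and 3. Sham 1 was highest and injured 2 next, and the groups overlapped. The log2 fold change against sham control was -1.88 ± 1.79 (SE; edgeR adjusted p = 0.900), and without sham 1 it was 0.16. Against all non-injured libraries it was -1.29 ± 1.97 (adjusted p = 0.968), and 1.14 without sham 1. Sham 1 was also the library with the highest endothelial sum (3186 CPM). The uninjured library, next highest in that sum (1007 CPM), had the lowest Pdgfb level. Platelet markers summed to 323 CPM in injured 1, 129 in sham 1 and 100 in injured 2, and to 10.9 to 26.8 elsewhere. Pf4 alone gave 294 CPM of the sum in injured 1. The part of endothelial or platelet RNA in the Pdgfb level was not tested.

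Pdgfc encodes a ligand secreted in latent form and freed by cleavage of its CUB domain. It stood at 5.19 and 57.6 CPM in sham 1 and 2, 46.2 in uninjured cells, and 18.3, 65.3 and 62.1 in injured 1, 2 and 3. Sham 1 and injured 1 were the low libraries, and both were rich in erythroid and neutrophil markers. Neutrophil markers summed to 9934 and 6286 CPM in sham 1 and injured 1 and to 4.28 to 790 elsewhere, and their part in the Pdgfc level was not tested. Its log2 fold change was 0.63 ± 1.00 (SE) against sham control and 0.41 ± 0.85 against all non-injured libraries (edgeR adjusted p = 0.970 and 0.983). It rested on sham 1: without that library it was -0.25 and -0.10. With sham 1 as the only sham library it was 3.23, a value that holds no spread between sham libraries.

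Pdgfd, the other CUB-domain ligand, acts mainly on the beta receptor. Its level was 10.4 and 10.1 CPM in sham 1 and 2, 10.2 in uninjured cells, and 7.74, 4.74 and 5.31 in injured 1, 2 and 3. All injured libraries lay below all non-injured ones, which lay within 0.04 log2(CPM + 1) units of each other. That closeness depended on the scaling between libraries. Sham 1, sham 2 and uninjured cells had 384, 365 and 417 Pdgfd counts, of totals of 38382144, 40483028 and 37506188. By total counts alone, the uninjured library thus had the largest share among them and sham 2 the smallest. The mean was 5.93 ± 1.59 CPM in injured cells and 10.2 ± 0.157 in non-injured cells (SD, n = 3 each), a ratio of 0.581. The difference did not pass: the log2 fold change was -0.79 ± 0.72 (SE; edgeR adjusted p = 0.916), and -0.79 ± 0.89 against sham control (adjusted p = 0.935). The SE comes from a model that shares its estimate of spread across genes of like level. The fold stayed below 0 without each library in turn, from -1.02 to -0.66 against sham control and from -1.02 to -0.67 against all non-injured libraries.

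Pdgfa and Pdgfd were the 2 of 9 members whose injured and sham libraries did not overlap, beside 21.0% of all genes tested, and both were lower in injured cells, as were 9.12% of genes. Against all non-injured libraries it was Pdgfd alone, 1 of 9 members beside 16.3% of genes in either direction and 7.07% lower in injured cells. Counted in either direction, the members' share against sham control was near that of all genes, and counted among lower genes it was above it, on 2 members. Of these, Pdgfa overlapped by total counts alone, without the scaling between libraries.

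Pdgfra encodes the alpha receptor, a marker of mesenchymal progenitors and fibroblasts. It stood at 155 and 221 CPM in sham 1 and 2, 242 in uninjured cells, and 87.0, 235 and 167 in injured 1, 2 and 3. Injured 1 was the lowest library and injured 2 lay above both sham libraries, so the groups overlapped. Pdgfra had a log2 fold change of -0.21 ± 0.49 (SE) against sham control, with an edgeR adjusted p of 0.989. Its sign turned with scaling by library size alone (0.01), without sham 2 (0.07) and without injured 1 (0.10). Against all non-injured libraries it was -0.34 ± 0.42 (adjusted p = 0.956).

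Pdgfrb encodes the beta receptor, carried by pericytes and other mesenchymal cells. Its level was 131 and 223 CPM in sham 1 and 2, 219 in uninjured cells, and 149, 110.0 and 111 in injured 1, 2 and 3. Sham 2 and the uninjured library were high, whereas sham 1 lay among the injured libraries. In log2 fold change Pdgfrb differed by -0.52 ± 0.40 (SE) against sham control and -0.64 ± 0.33 against all non-injured libraries (edgeR adjusted p = 0.865 and 0.777). Without sham 1 the latter was -0.85 ± 0.31 (edgeR unadjusted p = 0.0319, adjusted p = 0.475). Against sham control it was -0.08 without sham 2. Pericyte and smooth muscle markers summed to 1846 and 795 CPM in sham 1 and 2, 1589 in uninjured cells and 736 to 1381 in injured cells. Cspg4 alone gave 541 CPM of the sum in sham 2 and 1014 in injured 3. Of the 10 markers, 8 had a fold below 0 in each comparison, with medians of -0.79 and -0.91. Myh11, smooth muscle myosin, stood at 199 and 40.7 CPM in sham 1 and 2, 299 in uninjured cells, and 7.54, 6.51 and 31.1 in injured 1, 2 and 3. DESeq2 called it lower in both comparisons (adjusted p = 0.0421 and 0.00126), and edgeR did not (adjusted p = 0.865 and 0.452). The part of these cells in the Pdgfrb level was not tested.

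The balance of the receptors was read as a ratio of counts within each library, which does not depend on scaling. The log2 ratio of Pdgfra to Pdgfrb was 0.25 and -0.01 in sham 1 and 2, 0.14 in uninjured cells, and -0.77, 1.10 and 0.60 in injured 1, 2 and 3. It lay close to 0 in all non-injured libraries and spread to both sides in injured ones (0.31 ± 0.97 against 0.13 ± 0.13; SD, n = 3 each). The means did not differ beyond this spread by a 2-sided exact permutation test (p = 0.8, adjusted over 3 ratios 0.8), where the smallest p possible is 0.1. The difference of means turned to -0.21 without injured 2. Per kilobase of exon, Pdgfrb stood above Pdgfra in 5 of 6 libraries, and in 4 of 6 when the longest coding transcript set the length.

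Vegfa encodes the main angiogenic ligand and is a known target of hypoxia-inducible factors. It stood at 6.92 and 107 CPM in sham 1 and 2, 65.5 in uninjured cells, and 74.5, 84.8 and 130.1 in injured 1, 2 and 3. Sham 1 stood far below every other library, and sham 2 lay above injured 1 and 2. For Vegfa the log2 fold change was 0.76 ± 0.97 (SE) against sham control and 0.68 ± 0.82 against all non-injured libraries (edgeR adjusted p = 0.9505 and 0.951). Against sham control it was 3.80 without sham 2 and -0.15 without sham 1, and each of these values rests on 1 sham library, with no spread between sham libraries. Sham 1 had the highest erythroid, endothelial, neutrophil and Schwann cell marker sums of the 6 libraries, and the part of these in its Vegfa level was not tested. Nor was that of chondrocyte markers, which were higher (Cnmd, Col9a1) or lower (Chad) in injured cells by DESeq2.

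Vegfb encodes a ligand of the receptor Flt1. Its level was 9.97 and 14.3 CPM in sham 1 and 2, 4.26 in uninjured cells, and 5.14, 12.4 and 9.68 in injured 1, 2 and 3, and the groups overlapped. The log2 fold change was -0.42 ± 0.87 (SE) against sham control and -0.08 ± 0.79 against all non-injured libraries (edgeR adjusted p = 0.983 and 0.998). The latter was 0.35 without sham 2 and 0.21 without injured 1.

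Vegfc encodes the main lymphangiogenic ligand. It stood at 7.84 and 13.8 CPM in sham 1 and 2, 38.2 in uninjured cells, and 10.003, 7.30 and 7.60 in injured 1, 2 and 3. The uninjured library was the high one, and injured and sham libraries overlapped. For Vegfc the log2 fold change was -0.38 ± 0.67 (SE) against sham control and -1.27 ± 0.73 against all non-injured libraries (edgeR adjusted p = 0.979 and 0.810). The former was 0.084 without sham 2. The latter was -0.38 without the uninjured library and -1.65 ± 0.64 without sham 1 (edgeR unadjusted p = 0.0387, adjusted p = 0.485).

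**Figure D2:**
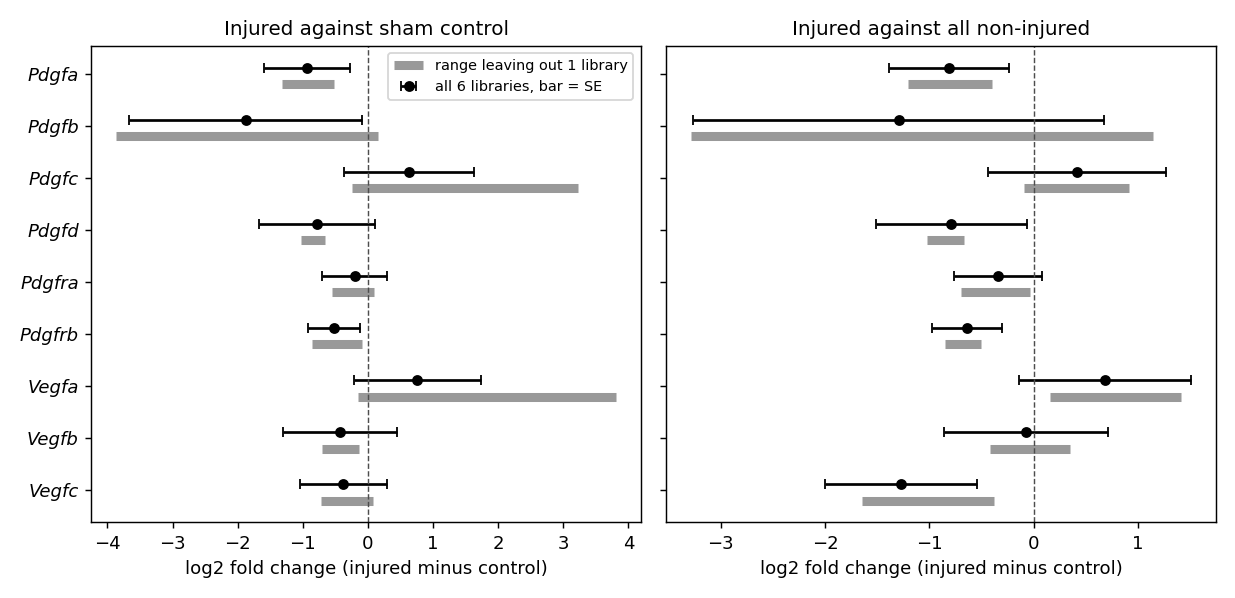
Log2 fold change of each member, injured minus control, against sham control (left) and against all non-injured libraries (right); points with bars are the edgeR value with its SE from all 6 libraries, and grey bands span the values obtained without each library in turn. Bands of Pdgfa, Pdgfd and Pdgfrb stay below 0 on both sides, and those of Vegfa and Pdgfc reach 3.80 and 3.23 on the left.

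The uninjured library lay between the sham libraries for 4 members (Pdgfc, Pdgfd, Pdgfrb and Vegfa). It lay above both for Pdgfra and Vegfc, and below both for Pdgfa, Pdgfb and Vegfb.

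The makeup of the ligands was compared per kilobase of exon, with lengths from GENCODE M21. Pdgfa and Pdgfc together made up most of the PDGF ligand level in every library. Pdgfa took 63.4% and 55.8% of it in sham 1 and 2, 48.9% in uninjured cells, and 31.5%, 44.2% and 40.7% in injured 1, 2 and 3. Pdgfc took 5.06% and 33.5% in sham 1 and 2, 37.7% in uninjured cells, and 40.3%, 46.1% and 51.4% in injured 1, 2 and 3. Thus Pdgfa led in the non-injured libraries and Pdgfc in the injured ones, although with the longest coding transcript as the length Pdgfa led in injured 2 as well. The count of Pdgfc divided by that of Pdgfa, which depends on neither length nor scaling, was 0.131 and 0.978 in sham 1 and 2, 1.26 in uninjured cells, and 2.09, 1.70 and 2.06 in injured 1, 2 and 3. This ratio was chosen after its values were seen and has no test. Of the 36 ratios between members, 4 separated injured from all non-injured libraries and 7 separated injured from sham libraries. Among all pairs of genes tested, 15.5% and 21.5% did so, and the members' share was not above that.

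Among the VEGF ligands, Vegfa took 14.6% and 63.3% of the level per kilobase in sham 1 and 2, 45.6% in uninjured cells, and 70.5%, 65.0% and 76.9% in injured 1, 2 and 3. Vegfb led in sham 1 with 56.3%. Vegfc was about level with Vegfa in the uninjured library, at 46.5%. The log2 ratio of Vegfa to Vegfb counts was -0.53 and 2.90 in sham 1 and 2, 3.94 in uninjured cells, and 3.85, 2.78 and 3.75 in injured 1, 2 and 3 (exact permutation p = 0.7, adjusted 0.8). The log2 ratio of Pdgfc to Pdgfd was -0.996 and 2.51 in sham 1 and 2, 2.18 in uninjured cells, and 1.24, 3.78 and 3.54 in injured 1, 2 and 3 (exact permutation p = 0.3, adjusted 0.8). Sham 1 was the lowest library in both. Without sham 1 the mean difference fell from 1.36 to 0.04 for Vegfa to Vegfb, and from 1.62 to 0.51 for Pdgfc to Pdgfd.

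**Figure D3:**
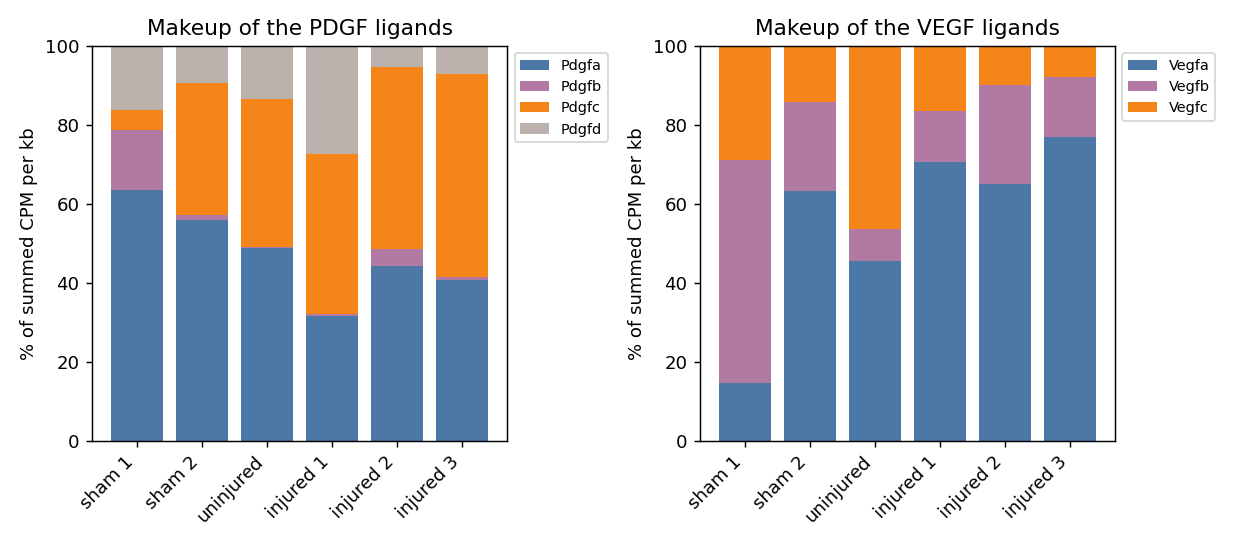
Share of each ligand in the summed CPM per kilobase of exon, for PDGF ligands (left) and VEGF ligands (right), in each library. Pdgfa holds 48.9% to 63.4% of the PDGF bars in non-injured libraries and 31.5% to 44.2% in injured ones, and Vegfa holds 65.0% to 76.9% of the VEGF bars in injured libraries.

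Receptors for the VEGF ligands and further relatives were read from a list of 8 genes, of which 0 passed by edgeR or DESeq2 and 0 had an unadjusted p under 0.05 in either comparison. Kdr, the main signalling receptor for VEGF-A on endothelium, stood at 113 CPM in sham 1, 42.1 in uninjured cells and 18.4, 12.9 and 0.792 in injured 1, 2 and 3, with no count in sham 2. Flt1, which binds VEGF-A and VEGF-B, stood at 51.9 CPM in sham 1, 46.6 in uninjured cells and 7.29, 12.2 and 1.61 in injured 1, 2 and 3. Flt4, the receptor for VEGF-C, stood at 22.2 CPM in sham 1, 6.18 in uninjured cells and 4.07, 0.512 and 0.749 in injured 1, 2 and 3. Sham 2 had no count of Flt1 or Flt4 either, and its 12 endothelial markers summed to 12.7 CPM. Kdr and Flt1 were next lowest in injured 3, whose endothelial sum was also next lowest (103 CPM), and all 3 receptors were highest in sham 1, where that sum was highest. The part of endothelial RNA in these levels was not tested.

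The co-receptors Nrp1 and Nrp2, which bind VEGF and semaphorins, were present in every library. Nrp1 stood at 92.1 and 40.8 CPM in sham 1 and 2, 54.7 in uninjured cells and 62.1, 47.9 and 65.9 in injured 1, 2 and 3. Nrp2 stood at 54.5 and 53.2 CPM in sham 1 and 2, 18.6 in uninjured cells and 26.3, 59.0 and 64.0 in injured 1, 2 and 3. Vegfd, a relative of Vegfc, ranged from 6.91 to 29.4 CPM in non-injured and from 13.4 to 23.2 CPM in injured libraries. Placental growth factor (Pgf), a further Flt1 ligand, ranged from 0.0276 to 15.2 and from 1.54 to 19.1 CPM, and the PDGF receptor-like gene Pdgfrl from 38.7 to 205 and from 73.3 to 148 CPM. Injured and non-injured libraries overlapped for all 8 genes.

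**Figure D4:**
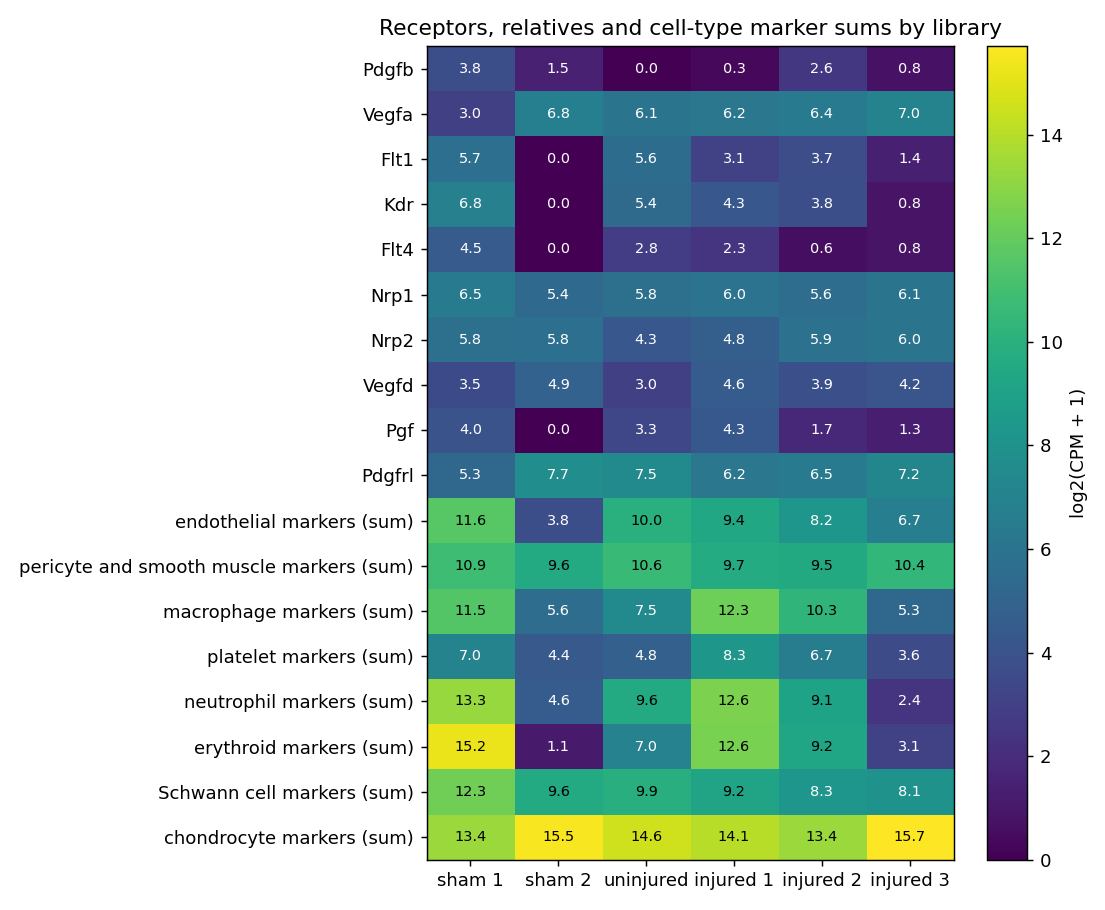
Levels of Pdgfb, Vegfa, VEGF receptors, co-receptors and relatives, and summed levels of marker lists, as log2(CPM + 1) in each library; colour and printed value give the same quantity. Kdr, Flt1 and Flt4 are at 0 in sham 2, where the endothelial marker sum is 3.8, and are highest in sham 1, where that sum is 11.6.

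Of 11 genes that process or trap the ligands, 0 passed by edgeR or DESeq2 in either comparison, and 7 had a fold below 0 against sham control. Their median log2 fold change was -0.41, beside 0.09 for all genes. Plat, tissue plasminogen activator, which cleaves latent PDGF-C, stood at 99.6 and 169 CPM in sham 1 and 2, 235 in uninjured cells, and 42.9, 99.5 and 79.8 in injured 1, 2 and 3. The injured libraries lay below all others, injured 2 by a small margin (log2 fold change against sham control -0.86 ± 0.48, SE; edgeR adjusted p = 0.865). The fold was -1.19 ± 0.45 against all non-injured libraries (edgeR unadjusted p = 0.0338, adjusted p = 0.606). Adamts3 and Ccbe1, which act together to activate latent VEGF-C, lay higher in every injured library than in every other. Adamts3 stood at 9.57 to 17.5 CPM in non-injured and 17.97 to 55.01 CPM in injured libraries, and Ccbe1 at 7.40 to 8.11 and 9.62 to 26.3 CPM. Their log2 fold changes against sham control were 1.20 ± 0.73 and 1.25 ± 0.78 (SE; edgeR adjusted p = 0.865 each). These 3 of 11 genes were the ones without overlap in both comparisons, beside 21.0% and 16.3% of all genes. Adamts3 and Ccbe1 were named after their values were seen. By total counts alone, Adamts3 lay higher in uninjured cells (717 of 37506188 counts) than in injured 1 (848 of 49952680). Plat then lay higher in injured 2 (6025 of 51089267) than in sham 1 (3685 of 38382144). Their lack of overlap thus depended on the scaling between libraries. Pcsk6, a proprotein convertase, had a log2 fold change of -1.20 ± 0.65 (adjusted p = 0.865) that was 0.10 without sham 1.

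Of 12 genes that relay signals from these receptors, 6 lay on each side of 0 against sham control, with a median log2 fold change of -0.02, and 0 passed. With all non-injured libraries as the control 3 lay above 0 and 9 below, with a median of -0.11 beside 0.00 for all genes, and again 0 passed. Against sham control the listed genes with the smallest p were Pik3r1, the regulatory subunit of phosphoinositide 3-kinase, and the phosphatase Ptpn11. Their log2 fold changes in that comparison were -0.67 ± 0.46 and 0.59 ± 0.41 (SE, edgeR adjusted p = 0.865 each). Against all non-injured libraries Pik3r1 was -1.44 ± 0.57 (edgeR unadjusted p = 0.0398, adjusted p = 0.629) and Ptpn11 0.21 ± 0.40 (adjusted p = 0.981). Groups did not overlap for 3 of the 12 genes against sham control and 2 against all non-injured libraries, beside 21.0% and 16.3% of all genes. By total counts alone, Ptpn11 lay lower in injured 1 (2110 of 49952680 counts) than in sham 2 (1721 of 40483028) and so overlapped.

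Of 6 genes that damp receptor signalling, 4 lay below 0 against sham control (median -0.61) and 0 passed by edgeR. Socs3, a feedback inhibitor of cytokine signalling, stood at 473 and 377 CPM in sham 1 and 2, 493 in uninjured cells, and 209, 142 and 244 in injured 1, 2 and 3. The groups did not overlap, and the log2 fold change against sham control was -1.10 ± 0.40 (SE; edgeR unadjusted p = 0.0285, adjusted p = 0.865). DESeq2 gave adjusted p = 0.152 against sham control and called it lower against all non-injured libraries (adjusted p = 0.0181). Ptpn1, a tyrosine phosphatase that acts on receptor kinases, differed by -0.76 ± 0.38 log2 units against sham control (SE; edgeR adjusted p = 0.865) and was lower in every injured library than in every other. Socs3 and Ptpn1 were the 2 of 6 genes without overlap in each comparison. For Ptpn1 this depended on the scaling between libraries. By total counts alone it lay higher in injured 2 (5520 of 51089267 counts) than in sham 2 (3891 of 40483028). Over all genes tested, 21.0% and 16.3% were without overlap in either direction, and 9.12% and 7.07% were so and lower in injured cells.

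A list of hypoxia-response genes was read because Vegfa is a known hypoxia target. Of 14 genes tested, 9 had a fold above 0 against sham control (median 0.37) and 9 against all non-injured libraries (median 0.48), and 0 passed by edgeR. In every injured library 4 of these genes stood above both sham libraries and 2 below, and 3 and 2 stood so against all non-injured libraries. Over all genes tested, the share without overlap, counted in either direction, was 21.0% and 16.3%. Pgk1, a glycolytic enzyme, stood at 283 and 245 CPM in sham 1 and 2, 73.2 in uninjured cells, and 667, 388 and 568 in injured 1, 2 and 3, so the groups did not overlap (log2 fold change 1.04 ± 0.42, SE; edgeR adjusted p = 0.865). Ndrg1, a stress-response gene induced by hypoxia, went the other way, at 400.0 and 165 CPM in sham 1 and 2, 373 in uninjured cells, and 68.9, 62.1 and 86.4 in injured 1, 2 and 3. Its log2 fold change was -1.96 ± 0.47 (SE; edgeR unadjusted p = 0.00415, adjusted p = 0.865), and DESeq2 called it lower (adjusted p = 0.00915).

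Genes whose pattern over the 6 libraries was most like that of a member were read by Pearson's r of log2(CPM + 1), among 9005 genes with a mean of at least 10 CPM. For Vegfa they were Spats2 and Antxr1 (r = 0.996 each), and Antxr1 stood at 13.6 CPM in sham 1 and at 68.7 to 128 CPM in the other libraries. For Pdgfrb they were the small Maf transcription factor Maff (0.994) and the interferon-inducible gene Ifi205 (0.986). For Pdgfra they were Arhgap12 (0.989) and Chmp2b (0.981). With 6 libraries and so many genes, high values are common: 127 genes exceeded 0.95 for Vegfa, 14 for Pdgfrb and 53 for Pdgfra. Between members, the highest values were 0.91 for Pdgfc with Vegfa and 0.88 for Pdgfa with Pdgfra. The libraries share their depth and cell makeup across genes, so these are descriptions.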

How the data were processed

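The authors deposited whole-number counts per gene symbol for 6 libraries, taken here as unscaled counts because column totals differ. The authors worked with DESeq, DESeq2 1.22.2 and Salmon 0.12.0, per the submitters' processing notes, where builds GRCm38.p6 and mm9 are named without a role. How transcripts were summed to genes and whether strand was used is not stated in those notes. The table lists 26130 genes, 6714 without any count.

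Genes were kept by filterByExpr (minimum count 10), scaled by TMM (trimmed mean of M-values) and tested by edgeR's quasi-likelihood method (version 4.0.16, R 4.3.3). Adjustment was by Benjamini-Hochberg across all genes tested, with a threshold of 0.05. Fits held 3 groups against sham control and 2 groups against all non-injured libraries. DESeq2 1.42.0 and limma-voom (limma 3.58.1) were alternatives. SEs were derived from the F statistic, and CPM uses TMM-scaled library sizes. Overlap of single genes between groups was read in these CPM. Scripts were tested on simulated data.

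Members and lists were chosen with earlier results of these data known. Named genes are all members, all relatives, the 2 genes with the smallest p of each further pathway list, and the 2 nearest patterns of Pdgfra, Pdgfrb and Vegfa. For marker lists, summed levels are given, with some single genes. These are DESeq2 calls, Cspg4 and Pf4 for their part in a sum, endothelial genes without a count in sham 2, and the sort genes. Not described above is Slc4a1, an erythroid marker with counts in sham 1 only, which DESeq2 called lower against sham control. The fit against sham control without the uninjured library was added after seeing the data. Of 130 list entries, 3 had no match. RefSeq promoter windows were matched by symbol for 7 of 9 members.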

Additional observations from a re-analysis of the deposited data

How the results depend on the processing

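No member passed an adjusted p of 0.05 under any alternative run, in either comparison. Over all genes, edgeR called 0 against sham control and 0 against all non-injured libraries. DESeq2 called 369 and 345, limma-voom 1 and 7, edgeR without a filter 3 and 5, and the 3-group fit against the mean of sham control and uninjured 2. DESeq2 called 1 other pathway gene against sham control (Ndrg1) and 2 against all non-injured libraries (Ndrg1 and Socs3).

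Directions of some members turned. Leaving out 1 library at a time against sham control, the log2 fold change ranged from -3.86 to 0.16 for Pdgfb, -0.25 to 3.23 for Pdgfc, -0.55 to 0.10 for Pdgfra (0.07 without sham 2), -0.15 to 3.80 for Vegfa and -0.73 to 0.084 for Vegfc. Against all non-injured libraries it ranged from -3.28 to 1.14 for Pdgfb, -0.10 to 0.92 for Pdgfc and -0.42 to 0.35 for Vegfb (0.21 without injured 1). With sham 1 and injured 1 both left out, Pdgfb was 0.68 and 1.66 in the 2 comparisons, Vegfb 0.25 in the second and Pcsk6 0.089 in the first (from -1.87 to 0.10 without 1 library). Library size alone gave 0.0099 for Pdgfra in the first and 0.10 for Vegfb in the second comparison. In the second, limma-voom gave 0.27 for Pdgfb and 0.12 for Vegfb, and the 3-group fit 2.15 and 0.33. The cause of these turns was not tested. Without each library in turn, the difference in log2 ratio ranged from -0.21 to 0.72 for Pdgfra to Pdgfrb, 0.04 to 2.27 for Vegfa to Vegfb and 0.51 to 2.43 for Pdgfc to Pdgfd.

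With the replicate block, on libraries numbered 1 and 2, 0 genes and 0 members passed. Deviations correlated at 0.35 for number 1 and 0.01 for number 2, and the labels do not say that a number marks a pair. The median fold of all genes against sham control went from 0.09 to 0.23 when scaled by library size alone.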
